A study of Mus musculus with 16 samples.

Results

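Vgll3 and the genes of the TEAD cofactor system were followed in the hippocampus and cortex of mice lacking Foxp1 in forebrain neurons. The 9 genes were picked by symbol from the 21999 genes of the deposited expression table: the vestigial-like genes Vgll2, Vgll3 and Vgll4, the transcription factor genes Tead1, Tead2, Tead3 and Tead4, and the coactivator genes Yap1 and Wwtr1. Vgll3 was chosen for its own values in these libraries, a region difference of the knockout effect and a wide spread in hippocampus, so its values are described here and carry no test. The study used bulk poly(A) RNA sequencing of flash-frozen tissue from the left hemisphere of male mice at postnatal day 47. There were 16 libraries in 4 groups of 4: control cortex (DJ3, DJ6, DJ7, DJ8), Foxp1 conditional knockout (cKO) cortex (DJ1, DJ2, DJ4, DJ5), control hippocampus (DJ17, DJ20, DJ21, DJ22) and Foxp1 cKO hippocampus (DJ15, DJ16, DJ18, DJ19). The controls were littermates. The sources used here do not give the driver of the deletion, the genotype of the controls, the deleted part of Foxp1 or which tissues shared a mouse.

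TEAD proteins bind DNA at the sequence called MCAT but need a partner to regulate genes. YAP1 and TAZ, the product of Wwtr1, are coactivators that the kinases of the Hippo pathway hold outside the nucleus, and VGLL proteins bind the same TEAD surface through a short conserved motif. In the brain, YAP1 and TAZ are known mainly from neural progenitors, astrocytes and vascular cells, and VGLL4 is known as a competitor of YAP1 for TEAD.

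Depth ran from 6943136 to 14817870 reads per library, so that 1 read was worth 0.0675 to 0.144 CPM, the count of a gene in every 1000000 counted reads. Foxp1, the targeted gene, was lower in each knockout library than in any control of its region. The 4 libraries of a group differed from each other by more than counting noise, with a chi-square per degree of freedom of 2.14 to 17.1 over the 24 pairs. Choroid plexus markers, 7 genes including Ttr, summed to 577 to 1858 CPM in hippocampus and to 3.34 to 235 CPM in cortex, where DJ6 and DJ1 stood above the rest. CA1 pyramidal neuron markers summed to 322 to 416 CPM in control hippocampus and to 148 to 160 CPM in control cortex. In bulk tissue, fewer cells of a type and less RNA per cell cannot be told apart.

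The promoters of the members are shown because TEAD proteins and forkhead factors such as FOXP1 both bind short motifs, and the capitals mark the MCAT letters. RefSeq promoters (GRCm38.p6) were at hand for 7 of the 9 members, and the 250 bases before each start were searched on both strands for MCAT (GGAATG or CATTCC) and for the forkhead motif TGTTTAC and its shorter core TGTTTA, which lies within it. MCAT letters were found before at least 1 start of 5 of the 7 genes, or in 7 of their 10 promoter entries, against 12.6% of 32851 promoters of the same length. The 2 entries of Wwtr1 overlap and share 1 match. The members' windows held 57.2% to 76.8% G and C, against a median of 52.4% over all promoters. Neither forkhead motif was found in these windows, against 3.17% of all promoters for the longer motif and 12% for the shorter. The whole window of Vgll3, which has a match 63 bases before the start, lies at chr16:65814939-65815188 on the plus strand. The 60-base windows of Yap1 (chr9:8004705-8004764), Wwtr1 (chr3:57576014-57576073), Vgll4 (chr6:114969253-114969312) and Tead3 (chr17:28350682-28350741) are on the minus strand.
Vgll3: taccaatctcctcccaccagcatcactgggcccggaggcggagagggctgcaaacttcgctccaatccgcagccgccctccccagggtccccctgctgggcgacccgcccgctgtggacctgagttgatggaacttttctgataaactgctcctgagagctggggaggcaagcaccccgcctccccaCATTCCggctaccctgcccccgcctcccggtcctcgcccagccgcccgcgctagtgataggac
Yap1: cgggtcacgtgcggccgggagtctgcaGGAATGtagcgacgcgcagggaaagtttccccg
Wwtr1: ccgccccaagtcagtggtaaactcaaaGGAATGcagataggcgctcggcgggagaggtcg
Vgll4: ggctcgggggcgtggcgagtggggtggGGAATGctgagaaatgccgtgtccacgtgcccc
Tead3: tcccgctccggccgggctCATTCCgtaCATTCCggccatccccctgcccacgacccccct
A match of letters is a description of the window and not a binding site.

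Vgll3 was low in cortex and lower still in knockout cortex, but high in knockout hippocampus. It encodes a TEAD cofactor known from mouse muscle and fat cells, and its 4 exon blocks lie at chr16:65815257-65866368 (GENCODE M21, GRCm38). In control cortex, Vgll3 stood at 3.34 CPM in DJ3, 6.97 in DJ6, 4.81 in DJ7 and 5.67 in DJ8. In knockout cortex it stood at 2.54 CPM in DJ1, 1.72 in DJ2, 1.22 in DJ4 and 0.982 in DJ5, or 9 to 23 reads each. All 4 knockout cortices lay below the lowest control cortex, as did 7.42% of all genes, and nothing is read from this since Vgll3 was chosen on these values. In control hippocampus, Vgll3 stood at 2.40 CPM in DJ17, 1.70 in DJ20, 5.89 in DJ21 and 25.2 in DJ22, the last from 374 reads. In knockout hippocampus it stood at 30.5 CPM in DJ15, 50.7 in DJ16, 18.4 in DJ18 and 33.1 in DJ19. The hippocampal groups overlapped because control DJ22 lay above knockout DJ18, while the other 3 controls were far below all knockouts.

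The mean level of Vgll3 was 1.62 ± 0.690 CPM in knockout cortex, 5.20 ± 1.52 in control cortex, 8.81 ± 11.1 in control hippocampus and 33.2 ± 13.3 in knockout hippocampus (SD, n = 4 each). In this order, the values of control cortex and control hippocampus overlapped, and so did those of control and knockout hippocampus. The ratio of knockout to control means was 3.77 in hippocampus and 0.311 in cortex. On the log2(CPM + 0.5) scale, which understates changes of low genes, the difference of Vgll3 was 2.48 (SE 0.61) in hippocampus and -1.44 (SE 0.25) in cortex. Without control DJ22, the control hippocampus mean was 3.33 CPM and the hippocampal log2 difference was 3.20.

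The gap between the 2 knockout effects on Vgll3, 3.92 (SE 0.72) on the log2 scale, was the largest in size of 13881 genes. It is the value Vgll3 was chosen for, and the next gene, 1700024P16Rik, had -3.38. Hippocampus exceeded cortex by 3.96 (SE 0.27) in knockouts and by 0.04 (SE 0.57) in controls, where leaving out DJ22 gave -0.685. The spread of Vgll3 among control hippocampi, an SD of 1.59 in log2, stood at place 9 of 13835 genes, against a median SD of 0.149. The authors' deposited table gives Vgll3 a log2 fold change of 1.86 (the authors' adjusted p = 1.3e-21) in hippocampus, and their table for cortex gives -1.73 (the authors' adjusted p = 1.8e-06).

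**Figure D1:**
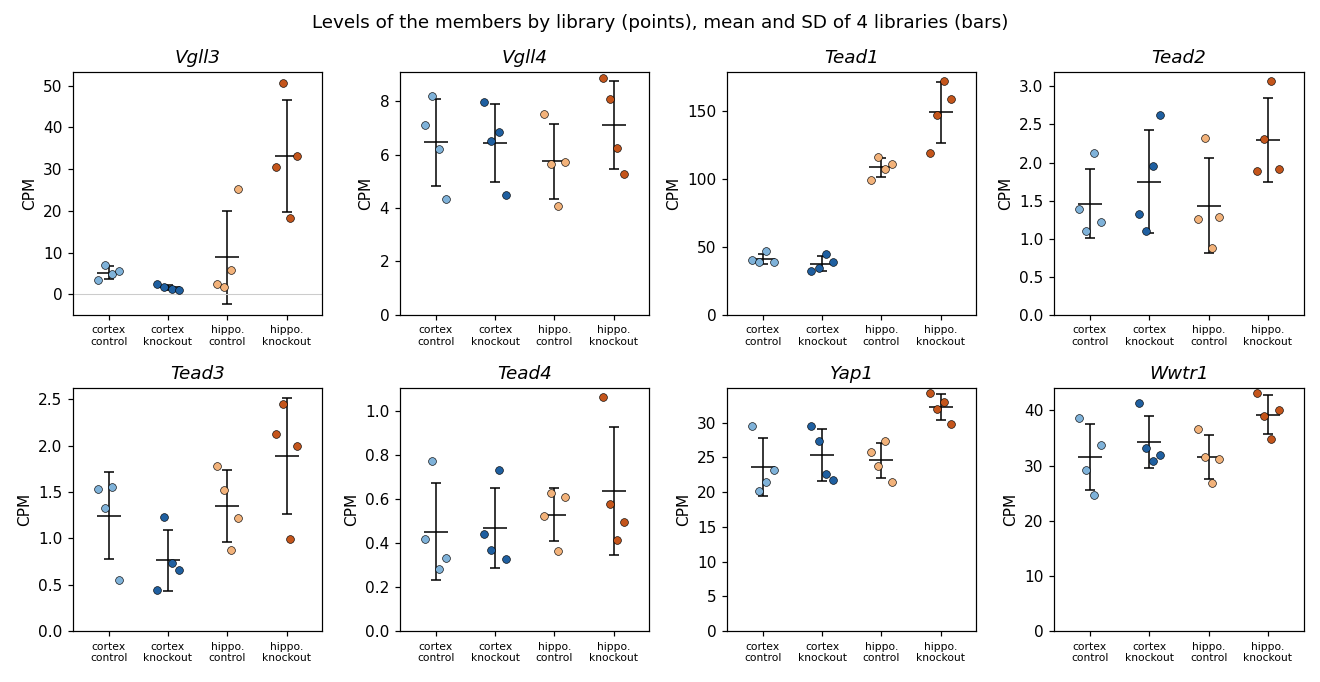
CPM of 8 members in each library (points) by group, with the mean and SD of 4 libraries as bars; the axes start at or below 0 and differ between panels. Vgll3 lies at 18.4 to 50.7 CPM in knockout hippocampus with control DJ22 at 25.2, and Tead1 stands at 99.5 to 172 CPM in hippocampus against 32.2 to 46.9 in cortex.

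In hippocampus Vgll3 was higher in libraries with less Foxp1, with exceptions between neighbours. Foxp1 stood at 276 CPM in DJ17, 248 in DJ20, 214 in DJ21 and 171 in DJ22, so the control with the most Vgll3 had the least Foxp1. Among the knockouts it stood at 102 CPM in DJ16, 113 in DJ15, 121 in DJ19 and 140 in DJ18, and the lowest and highest of these had the most and the least Vgll3 of the knockouts. Control DJ17 had more of both genes than DJ20, control DJ22 more of both than knockout DJ18, and knockout DJ19 more of both than DJ15. In cortex the controls held 265 to 298 CPM of Foxp1 and the knockouts 96.0 to 144 CPM, and Vgll3 was higher where Foxp1 was higher between the groups. Within knockout cortex, DJ5 had the most Foxp1 and the least Vgll3. Foxp1 had a Pearson correlation of -0.95 with Vgll3 over the 8 hippocampal libraries. This was the third lowest among 12784 genes, with predicted and clone gene models set aside. Over the 8 cortical libraries the correlation was 0.82, and over all 16 libraries it was -0.23. Each such value carries the genotype difference itself and is a description.

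**Figure D2:**
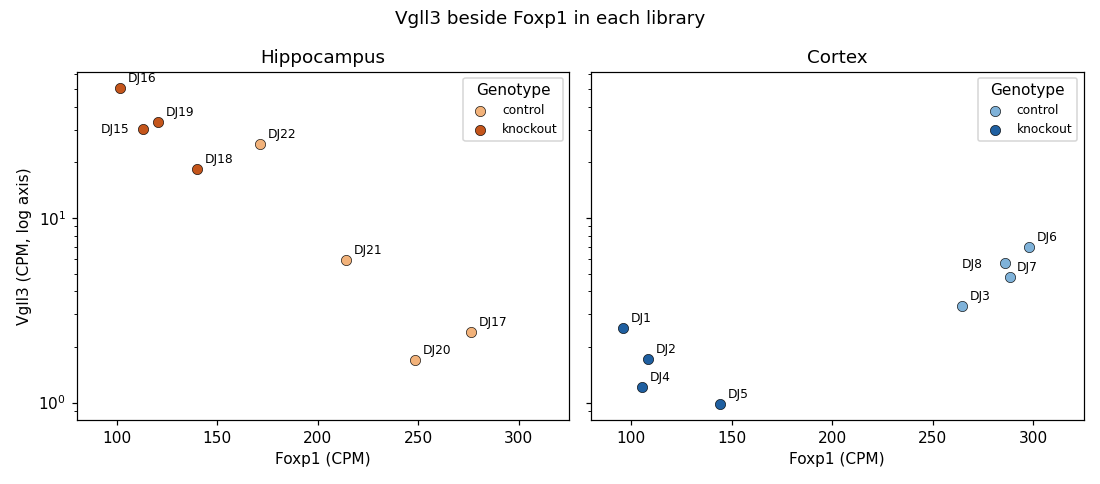
Vgll3 (CPM, log axis) against Foxp1 (CPM) in the 8 hippocampal and the 8 cortical libraries, with each point labelled by library. In hippocampus DJ22, at 171 CPM of Foxp1, lies between the other controls and the knockouts on the Foxp1 axis. Its Vgll3, at 25.2 CPM, lies above knockout DJ18 at 18.4. In cortex the 4 knockouts lie at low values of both genes.

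Markers of pyramidal neurons of hippocampal field CA1 ran opposite to Vgll3 in hippocampus. The mean log2 level of the list had a Pearson correlation of -0.88 with Vgll3 over the 8 hippocampal libraries. The same list had -0.82 with Yap1, -0.77 with Tead1 and -0.71 with Wwtr1, and the pan-neuronal list had -0.76 with Vgll3. These values carry the genotype difference. Of the 6 CA1 genes, 4 fell and 0 rose in knockout hippocampus, against 0.719% lower and 0.662% higher over all genes. Among the 4 were Ndst4, a heparan sulfate enzyme gene (-1.44, SE 0.137, limma adjusted p = 0.000294), and Pou3f1, a POU transcription factor gene (-1.36, SE 0.17, limma adjusted p = 0.00262). The summed level of the 6 CA1 genes was 322 to 416 CPM in controls and 209 to 262 in knockouts. It was lowest among controls in DJ22, at 322 CPM. DJ22 was also the lowest control in summed choroid plexus markers, at 577 CPM against 987 to 1061, and in striatal markers, at 91.3 CPM against 341 to 716. Summed astrocyte markers stood at 2363 to 2847 CPM in control and 2745 to 3210 in knockout hippocampus. There 1 of 9 genes rose, against 0.662% of all genes. It was the transcription factor gene Sox9 (0.40, SE 0.09, limma adjusted p = 0.0464). Sox9 lost its call without any 1 of 7 of the 8 libraries and with edgeR (edgeR adjusted p = 0.101). Pan-neuronal markers summed to 6437 to 7402 CPM in control and 5898 to 6189 in knockout hippocampus. Of these 5 genes 0 were called by limma, against 1.38% of all genes. In cortex, 7 of 7 oligodendrocyte genes fell, against 5.83% of all genes lower, from a summed 4749 to 6501 CPM in controls to 2841 to 3781 in knockouts. Against 7.64% of all genes higher there, 6 of 7 striatal genes rose, from a summed 210 to 439 to 505 to 770 CPM. Claustrum markers rose in 3 of 3 genes, from a summed 104 to 142 to 211 to 336 CPM, and of 6 upper-layer cortical genes 4 rose and 1 fell, at 1230 to 1360 and 1541 to 1651 CPM. The part of these cell markers in the levels of Vgll3 was not tested.

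Genes were ranked by Pearson correlation of log2(CPM + 0.5) with Vgll3, among genes averaging 1 CPM or more, with predicted and clone gene models set aside. Over all 16 libraries, of 12759 such genes, the highest were Ptprf (0.93), Bace2 (0.92), Zfp423 (0.90), Pde1a (0.90) and Frmpd3 (0.89). Next came Slitrk2 (0.87), Etv1 (0.87), Antxr2 (0.86), Fibin (0.86) and Sccpdh (0.86). Ptprf, a receptor tyrosine phosphatase gene, stood at 59.4 ± 1.53 CPM in control and 49.4 ± 3.40 in knockout cortex, and at 58.7 ± 9.29 in control and 77.4 ± 7.90 in knockout hippocampus (SD, n = 4). Bace2, a protease gene, was highest among control hippocampi in DJ22, at 4.99 CPM, as Vgll3 was, and ran from 5.905 to 10.95 CPM in knockout hippocampus. Over the 8 hippocampal libraries the list was led by Ttc26 (0.97), Pcdh8 (0.97), Negr1 (0.96), Rspo1 (0.96), Dio3 (0.96), Rrnad1 (0.96), Rspo3 (0.96), Kcng1 (0.95), Acad12 (0.95) and Timp2 (0.95). The lowest were Ncoa2 (-0.97), Rinl (-0.96), Foxp1, Prkcb (-0.94) and Synrg (-0.94). Some of these values rest on few reads. In control hippocampus a library had 1 to 23 reads of Rspo1, 0 to 22 of Dio3 and 9 to 20 of Acad12. In knockout hippocampus it had 5 to 12 of Rinl. The protocadherin gene Pcdh8 held 22.2 to 32.3 CPM in control hippocampus, with DJ22 the highest, and 34.9 to 38.4 in knockout hippocampus. Bace2 and Pcdh8 were picked for their correlation with Vgll3, so nothing is read from their high values in DJ22. The 2 lists share no gene, and Pcdh8 was also higher in knockout cortex (23.5 to 30.8 CPM) than in control cortex (10.6 to 11.7), where Vgll3 was lower.

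Tead1 was the most abundant TEAD gene of both tissues and was higher in hippocampus. Per kilobase of annotated exon it made up 81.5% ± 3.14 of the TEAD signal in control cortex and 91.6% ± 2.15 in control hippocampus (SD, n = 4 each). In control cortex Tead1 stood at 40.1 CPM in DJ3, 39.2 in DJ6, 46.9 in DJ7 and 38.9 in DJ8. In control hippocampus it stood at 99.5 CPM in DJ17, 116 in DJ20, 107 in DJ21 and 111 in DJ22. The groups did not overlap, as held in this direction for 19.9% of all genes, and hippocampus was 1.38 higher on the log2 scale (SE 0.08, limma adjusted p = 1.76e-08). With Vgll3 set aside, Tead1 was the 1 of 6 tested members called between control regions, against 37.8% of all genes in either direction and 20.9% higher in hippocampus. In knockouts the gap was 1.97 (SE 0.12, limma adjusted p = 1.77e-08), again with no overlap, as for 19.6% of all genes in this direction. The cortical libraries with the most choroid plexus marker, DJ6 and DJ1, held 39.2 and 32.2 CPM of Tead1, and DJ1 was the lowest library of cortex. Among hippocampal libraries DJ18 had both the most choroid plexus marker and the most Tead1. The part of that tissue in the region gap was not tested.

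Knockout hippocampus held 119 CPM of Tead1 in DJ15, 147 in DJ16, 172 in DJ18 and 159 in DJ19, each above the highest control. The difference of 0.45 (SE 0.10) did not pass over all genes (limma adjusted p = 0.0568), although the groups did not overlap, as held in this direction for 5.32% of all genes. It passed without knockout DJ15 (limma adjusted p = 0.00643), with robust variance (0.0462) and with all 16 libraries in 1 fit (0.0239), and not with edgeR (0.114). The authors' deposited table for hippocampus lists Tead1 at a log2 fold change of 0.409 (the authors' adjusted p = 0.0016). In cortex Tead1 stood at 41.3 ± 3.80 CPM in controls and 37.7 ± 5.64 in knockouts (SD, n = 4), overlapping groups with a difference of -0.14 (SE 0.10, limma adjusted p = 0.431). The 2 effects differed by 0.58 (SE 0.15, limma adjusted p = 0.0421), 1 of 7 tested members called against 2.72% of all genes, 1.17% higher and 1.55% lower. That call was lost with edgeR (0.0748), with no filter on low genes (0.0719), with median-of-ratios rescaling (0.0812) and without any 1 of 13 of the 16 libraries (up to 0.0943), and it held without DJ4, DJ15 or DJ17.

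The other TEAD genes were near the limit of detection. Tead2, known from early mouse embryos, held 0.872 to 3.08 CPM over the 16 libraries and was called in no comparison. Its exons overlap those of Cd37 on the opposite strand by 13 bases, and the strand setting of the counting is not known. Tead3 held 1.35 ± 0.390 CPM in control and 1.89 ± 0.625 in knockout hippocampus, and 1.24 ± 0.469 in control and 0.764 ± 0.331 in knockout cortex (SD, n = 4), from 4 to 28 reads a library. Knockout hippocampus exceeded knockout cortex by 0.91 (SE 0.27, limma adjusted p = 0.0168), with overlapping values, and the call was lost without knockout cortex DJ1 (0.0507) or knockout hippocampus DJ16 (0.0574). Tead4, known from the mouse trophectoderm, held 0.283 to 1.06 CPM, fell below the expression minimum in 2 of the 5 comparisons and was not called in the others.

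Yap1 stood highest in the 4 knockout hippocampi, above every library of the other groups. In control hippocampus it was at 25.8 CPM in DJ17, 23.8 in DJ20, 27.3 in DJ21 and 21.5 in DJ22, and in knockout hippocampus at 34.2 CPM in DJ15, 32.0 in DJ16, 33.0 in DJ18 and 29.9 in DJ19. Tead1 and Yap1 were the members whose hippocampal groups did not overlap, as held in this direction for 5.32% of all genes. The Yap1 difference of 0.39 (SE 0.09) did not pass over all genes (limma adjusted p = 0.0722; edgeR adjusted p = 0.129). In cortex the groups overlapped, at 20.1 to 29.5 CPM in controls and 21.8 to 29.5 in knockouts. Knockout hippocampus exceeded knockout cortex by 0.35 (SE 0.11, limma adjusted p = 0.019), with no overlap, as for 19.6% of all genes in this direction, a call lost without knockout cortex DJ4 (0.0621) or DJ5 (0.0687). A non-coding gene, Gm20416, overlaps Yap1 exons on the opposite strand by 116 bases. Wwtr1 held 31.6 ± 4.04 CPM in control and 39.2 ± 3.45 in knockout hippocampus, and 31.6 ± 5.93 in control and 34.3 ± 4.76 in knockout cortex (SD, n = 4). Its hippocampal difference of 0.31 (SE 0.10) did not pass (limma adjusted p = 0.196), and its gap of 0.20 between knockout regions (limma adjusted p = 0.16) passed only without DJ1 (0.0322). Of the marker lists, summed deep-layer cortical genes stood at 683 to 741 CPM in control and 773 to 838 in knockout hippocampus. Of these 9 genes 0 were called by limma, against 1.38% of all genes. The sum rests in good part on Etv1, 1 of the 9 and also among the genes most like Vgll3. Etv1 stood at 134 ± 31.3 CPM in control and 210 ± 26.3 in knockout hippocampus (SD, n = 4). Endothelial genes stood at 230 to 286 and 277 to 310 CPM, with 0 of 7 called, and the overlapping astrocyte ranges and the CA1 markers are given beside Vgll3. Over the 8 hippocampal libraries, Yap1 had its highest Pearson correlation with the deep-layer list (0.93), and Wwtr1 with the endothelial (0.90) and astrocyte (0.88) lists, values that carry the genotype difference. The CA1 list had -0.82 with Yap1 and -0.71 with Wwtr1, and the pan-neuronal list -0.80 and -0.76, which carry that difference too. The part of these cells in Yap1 and Wwtr1 was not tested.

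Vgll4 ran between 4.07 and 8.86 CPM over the 16 libraries and was called in no comparison. Its difference was 0.29 (SE 0.20) in hippocampus and 0.002 (SE 0.20) in cortex. Vgll2, known from skeletal muscle, gave 1 read in each of the knockout cortices DJ1 and DJ2 and none elsewhere. A count of 0 allows up to 0.0929 CPM in control cortex, 0.0608 in control hippocampus and 0.0723 in knockout hippocampus, from 3 reads over the group and for counting error only. Per kilobase of exon, the order in control hippocampus was Tead1 at 10.8 CPM, Wwtr1 at 6.60, Yap1 at 5.90, Vgll4 at 2.83 and Vgll3 at 1.26 ± 1.58 (SD, n = 4). Without DJ22, chosen for omission after its value was seen, Vgll3 stood at 0.475 ± 0.32 CPM per kilobase (SD, n = 3), beside 0.437 for Tead3 and 0.410 for Tead2. In knockout hippocampus Vgll3 reached 4.73 ± 1.90 CPM per kilobase, beside 3.50 ± 0.812 for Vgll4 (SD, n = 4).

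With Vgll3 set aside, 0 of 7 tested members were called between knockout and control hippocampus by limma or by edgeR, against 1.38% of all genes by limma (0.662% higher, 0.719% lower), and 4 of 7 had an unadjusted limma p below 0.05, against 13.6% of all genes. Their median log2 difference was 0.35, beside 0.06 over all genes. In cortex 0 of 6 were called by either tool, against 13.5% of all genes by limma (7.64% higher, 5.83% lower), and 0 had an unadjusted limma p below 0.05, against 25.7% of all genes, with a median of 0.05 beside 0.03. Between regions 3 of 7 were called in knockouts, Tead1, Tead3 and Yap1, all higher in hippocampus, against 34.6% of all genes (20.5% higher, 14.1% lower).

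**Figure D3:**
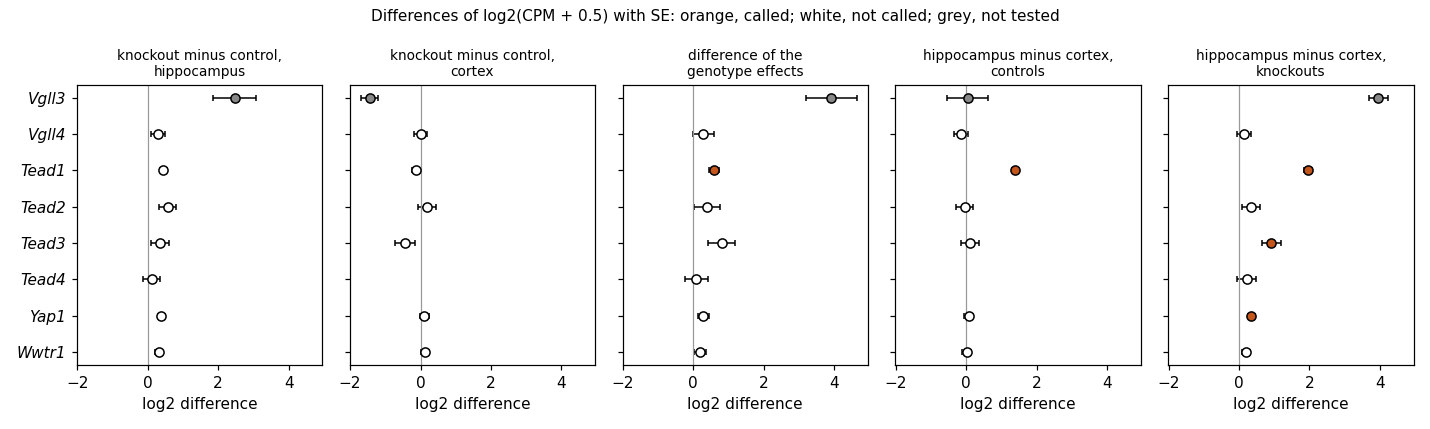
Differences of log2(CPM + 0.5) with their SE for 8 members in 5 comparisons, where filled orange points were called, white points were not and grey Vgll3 points carry no test. Vgll3 lies at 2.48 in hippocampus and -1.44 in cortex, and Tead1 at 1.38 and 1.97 between regions.

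In knockout hippocampus 0 or 1 gene of each Hippo pathway list was called by limma, against 1.38% of all genes. Of 21 tested genes among Hippo kinases and their partners, 0 were called there by limma or edgeR, and 3 had an unadjusted limma p below 0.05, near the 13.6% of all genes, with a median log2 difference of 0.07. Of 22 junction and polarity regulators, 1 rose, and of 21 tested YAP and TAZ target genes, 1 rose. Both are Ptpn14, which stands in both lists and encodes a phosphatase that binds YAP1. An unadjusted limma p below 0.05 was held by 5 of the 22 regulators and 7 of the 21 targets, against 13.6% of all genes. Ptpn14 stood at 15.35 CPM in control DJ17, 16.6 in DJ20, 20.1 in DJ21 and 26.1 in DJ22, and at 34.25 CPM in knockout DJ15, 37.0 in DJ16, 38.8 in DJ18 and 32.4 in DJ19. The groups did not overlap, as held in this direction for 5.32% of all genes, and DJ22 was again the highest control. Ptpn14 rose by 0.88 (SE 0.15, limma adjusted p = 0.0137), a call lost without control DJ20 (0.0666) or knockout DJ16 (0.0653). In cortex Ptpn14 rose too, by 1.09 (SE 0.13, limma adjusted p = 9.82e-06), from 9.19 ± 1.51 to 19.96 ± 1.55 CPM (SD, n = 4), while Vgll3 was lower there.

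Of the well-known YAP and TAZ targets Ctgf, Cyr61, Lats2, Amotl2 and Ankrd1, none passed in knockouts, and for Ctgf and Cyr61 this changed with the setting. Ctgf, a secreted matrix protein gene, held 10.8 ± 1.64 CPM in control and 19.4 ± 6.17 in knockout hippocampus (SD, n = 4), a difference of 0.775 (SE 0.205, limma adjusted p = 0.0978), which passed with all 16 libraries in 1 fit (0.0343) and without knockout DJ19 (0.0371). Cyr61, of the same family, gave 0.77 in hippocampus (SE 0.38, limma adjusted p = 0.412) and also 0.77 in the other region (SE 0.38, limma adjusted p = 0.217), with DJ15 and DJ1 the highest library of each knockout group at 10.9 and 14.7 CPM. In cortex it passed without knockout DJ5 (1.13, limma adjusted p = 0.0451). The kinase gene Lats2 gave -0.206 and -0.175 in hippocampus and cortex and Amotl2, an angiomotin-like junction gene, 0.04 and 0.13, none called. Ankrd1 gave at most 2 reads a library in cortex and 0 in hippocampus. In knockout cortex the lists had 2 of 21, 4 of 22 and 5 of 20 genes called, against 13.5% of all genes (7.64% higher, 5.83% lower). Of the kinase list 2 of 21 rose, the kinase gene Mink1 (0.34, SE 0.06, limma adjusted p = 0.000548) and Wwc2 (0.27, SE 0.07, limma adjusted p = 0.0104). Of 22 regulators, Ptpn14 and the atypical cadherin gene Fat4 (0.65, SE 0.095, limma adjusted p = 0.000126) rose, and the related Fat1 (-0.30, SE 0.07, limma adjusted p = 0.00637) and Ctnna1, encoding alpha-catenin (-0.34, SE 0.08, limma adjusted p = 0.00896), fell. Of 20 tested targets, 3 rose, Ptpn14, Nt5e (0.79, SE 0.177, limma adjusted p = 0.00511) and Fjx1 (0.47), and 2 fell, Dock5 (-0.78, SE 0.18, limma adjusted p = 0.00605) and Asap1 (-0.18). Fjx1 lost its call without DJ6, DJ7, DJ8 or DJ2, and Asap1 without DJ3, DJ6, DJ8, DJ1, DJ2 or DJ4.

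More pathway genes were called between the control regions. Hippo kinases and partners had 11 genes higher and 1 lower in hippocampus of 21 tested, led by Lats2 at 1.48 (SE 0.09, limma adjusted p = 5.11e-08), with the FERM gene Frmd6 lower at -1.01 (SE 0.08, limma adjusted p = 6.52e-07). Junction regulators had 11 higher and 0 lower of 22, with Dchs2 at 2.52 (SE 0.17, limma adjusted p = 1.41e-07) and Fat4 at 1.29 (SE 0.12, limma adjusted p = 2.85e-06), both atypical cadherin genes. Targets had 11 higher and 4 lower of 21, with the growth factor gene Tgfb2 at 2.60 (SE 0.08, limma adjusted p = 2.5e-10) and Ctgf at -1.49 (SE 0.16, limma adjusted p = 8.81e-06), so the targets did not move one way. Set beside the background of 37.8% of all genes, 20.9% higher and 16.9% lower, limma called 12 of 21, 11 of 22 and 15 of 21. By edgeR the counts called were 11, 11 and 13. The list medians were 0.19, 0.40 and 0.47 on the log2 scale beside 0.02 over all genes. Lats2 counts among both the kinases and the targets, and Amotl2 and Ptpn14 among both the regulators and the targets. In knockouts the counts were 6 higher and 1 lower of 21, 15 and 0 of 22, and 10 and 4 of 21, against 34.6% of all genes (20.5% higher, 14.1% lower), so the kinase list lay at that share. For the difference of the knockout effects, 0 of 21 kinase-list genes were called by limma or edgeR. By either tool 3 of 22 regulators and 1 of 21 targets were called, against 2.72% of all genes by limma. An unadjusted limma p below 0.05 was held by 2 kinase-list genes, 5 regulators and 4 targets, against 13.8% of all genes. Ctnna1 differed by 0.56 (SE 0.11, limma adjusted p = 0.00745), and Fat1 (0.40), Fat4 (-0.64) and the target Ccdc80 (0.92) lost their calls with no filter on low genes and, in that order, without any 1 of 11, 10 and 9 of the 16 libraries.

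**Figure D4:**
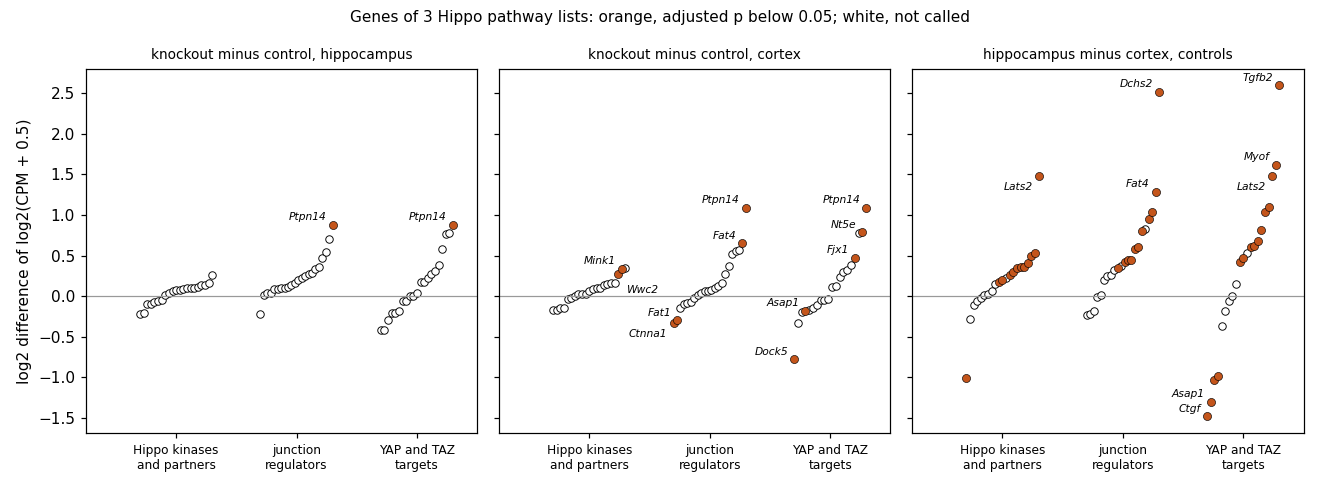
Log2 differences of the tested genes of 3 Hippo pathway lists in 3 comparisons, each list sorted by value, with orange points called and white points not. Ptpn14 is the 1 gene called in hippocampus, at 0.88, and between control regions the targets run from -1.49 for Ctgf to 2.60 for Tgfb2.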

How the data were processed

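Poly(A) RNA of 16 tissue samples was sequenced on an Illumina NextSeq, per the labels' protocols. The submitters' processing notes name STAR, HTSeq, edgeR, mm10 and GRCm38; the sources used here give no version, role, annotation or strand setting. The authors deposited CPM per gene, and each column summed to 1000000. Whole reads were recovered for 100% of values (tolerance 0.001 reads). The authors' deposited tables also give log2 fold changes and adjusted p-values, quoted as theirs. Each comparison used limma 3.58.1 in R 4.3.3, trended on level, on log2(CPM + 0.5) of genes averaging 0.5 CPM or more, with Benjamini-Hochberg adjustment over all genes and a threshold of 0.05; the difference of effects used all 16 samples. The fits were tested on simulated counts. Alternatives were pseudocounts of 0.1 and 1, no minimum or 1 CPM, quantile and median-of-ratios scaling, robust variance, edgeR 4.0.16 on the recovered reads, 1 joint fit, a block and each library left out. Exon lengths came from GENCODE M21. Members and gene lists were chosen with earlier results of these data known. Named genes are all members, up to 5 called genes per list by smallest p, Ctgf, Cyr61, Ankrd1, Lats2 and Amotl2, called markers, and the 10 highest and 5 lowest correlates of Vgll3. The design text calls the replicates independent; p-values measure the spread between these samples.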

Additional observations from a re-analysis of the deposited data

Results flagged for a closer look

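Tead1 in control cortex DJ7, at 46.92 CPM, stood apart from the other 3 control cortices, at 38.9 to 40.1 CPM. Its gap to the nearest of them took up most of the range of the group (Dixon's test at 95%). This was 1 of 32 groups of members examined, and chance gives about 1 in 20. The 32 include the groups of Vgll3, which was chosen partly for its spread, so the count is a description.

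The knockout effects on Tead1 in the 2 regions differed by 0.584 on the log2 scale (SE 0.15, limma adjusted p = 0.0421), with all 4 hippocampal knockouts above the controls and overlapping cortical groups. The call was lost with edgeR (adjusted p = 0.0748), no filter on low genes (0.0719), median-of-ratios rescaling (0.0812) and without any 1 of 13 of the 16 libraries. Vgll3 had the gap of 3.919 between its 2 knockout effects for which it was chosen, so that difference was not tested.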

How the results depend on the processing

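In hippocampus 1 member in place of 0, Tead1, was called with robust variance and with all 16 samples in 1 fit, and 0 to 1 with a library left out. For the difference of the effects 0 in place of 1 were called with no filter, median-of-ratios rescaling and edgeR, and 0 to 1 with a library left out. The cause was not tested. Between regions the counts were 1 in controls under each alternative, and 3 in knockouts, or 2 to 3 with a library left out.

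Differences near 0 changed sign. Vgll4 in cortex (0.002) gave -0.041 with quantile normalization, -0.030 with median-of-ratios and -0.038 with edgeR, and -0.162 to 0.154 with a library left out. Between control regions Vgll3 gave -0.003 with a pseudocount of 0.1 and -0.022 with quantile normalization (left out: -0.685 to 0.497), Tead3 -0.003 with quantile normalization (left out: -0.118 to 0.241), Wwtr1 -0.016, -0.006 and -0.035 with quantile, median-of-ratios and edgeR (left out: -0.098 to 0.112). Left-out libraries gave -0.245 to 0.104 for Tead2 between control regions, -0.043 to 0.214 for Tead4 in hippocampus, -0.061 to 0.211 for Tead4 in the difference of effects and -0.020 to 0.257 for Vgll4 between knockout regions. Amotl2 in hippocampus gave -0.057, -0.021 and -0.024 with quantile, median-of-ratios and edgeR (left out: -0.028 to 0.103).

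Over all genes, calls in hippocampus moved from 192 to 446 with all 16 samples in 1 fit and to 56 to 295 with a library left out (56 without DJ20), and for the difference from 378 to 248 to 699. With quantile normalization the hippocampal calls were 56 higher and 109 lower in place of 92 and 100, and with median-of-ratios the cortical calls were 829 and 951 in place of 1047 and 800. Alternatives for the pathway genes and markers were added after seeing the data. The labels share no replicate numbers between groups. Cortex DJ n was coupled with hippocampus DJ n + 14 as a replicate block, a pairing the labels do not state. This called 1, 1 and 3 members, with 520, 5222 and 5361 genes, for the difference, controls and knockouts. The couples' correlations ran from -0.019 to 0.188. Control cortices DJ3, DJ6 and DJ8 correlated best with their own couple, while control DJ7 and all knockout cortices correlated better with another hippocampus of the same group. Depth limits Tead2, Tead3, Tead4 and Vgll2.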
